A study of Mus musculus with 2 samples.

Results

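The genes described are 10 genes of the thick filament of striated muscle and of its regulation, picked by symbol from the 22882 gene symbols measured in mouse heart. They are the essential myosin light chains Myl1, Myl3 and Myl4, the regulatory light chains Myl2 and Myl7, the light chain kinases Mylk2, Mylk3 and Mylk4, and the myosin-binding proteins C Mybpc2 and Mybpc3. All 10 were found, each on 1 row. RNA came from hearts of C57BL6/J mice of both sexes, 23 days old, as 1 pool of 5 Med1fl/fl mice (control) and 1 pool of 5 csMed1-/- mice. Both groups carried the floxed Med1 allele, and in csMed1-/- mice a Cre transgene under the α-myosin heavy chain (α-MyHC) promoter deleted Med1 from late gestation on in cardiomyocytes, so that the other cells of the heart kept it. Whether the control mice carried Cre is not given in the sources used here. The comparison asks which heart genes differ in their RNA when cardiomyocytes lack Med1. The paper describes csMed1-/- hearts, at ages that include 23 days, as enlarged, increasingly flaccid and poorly contracting. Effects of the loss of Med1 and of this heart disease cannot be told apart in these data. Med1 encodes a subunit of Mediator, the complex that links transcription factors to RNA polymerase II.

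Each muscle myosin consists of heavy chains whose necks bind an essential and a regulatory light chain. The ventricle of the adult heart uses Myl3 and Myl2, the atrium Myl4 and Myl7, and fast skeletal muscle Myl1, while Myl4 is also the light chain of the embryonic heart and embryonic skeletal muscle. Myosin light chain kinases phosphorylate the regulatory light chain, which favours the interaction of myosin heads with actin: Mylk3 encodes the cardiac kinase, Mylk2 the skeletal muscle kinase, and Mylk4 a further member of the family. Cardiac myosin-binding protein C, the product of Mybpc3, sits on the thick filament and tunes cross-bridge cycling, and Mybpc2 encodes the fast skeletal form. Inherited mutations of Myl2, Myl3 and Mybpc3 are known causes of cardiomyopathy.

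Expression was measured as FPKM, by its usual definition the number of sequenced fragments relative to the length of the transcript and to all mapped fragments, as deposited by the authors. With 1 pooled library per genotype there was no replicate, no error could be given and no test was made. Ratios of csMed1-/- to control beyond 2-fold, the study's own limit on the size of a difference, were counted over the 10489 genes that neither library listed at 0 and that reached 1 FPKM in either of them. The study also applied a cutoff on the false discovery rate and reported far fewer genes. No such cutoff was applied here, so the counts are not comparable with the study's. Med1 itself stood at 3.38 FPKM in the control pool against 0.412 FPKM in the csMed1-/- pool, a ratio of 0.122. The files hold no read counts. The smallest values of genes with 1 annotated transcript lay in steps. If the lowest step stands for 1 read, this gives the approximate read numbers quoted here. If FPKM was also scaled to all mapped fragments, the libraries held about 64000000 (control) and 85000000 (csMed1-/-) reads. Of the 7 cardiomyocyte markers that passed this filter, Tnnt2, Tnni3, Ckm and Ryr2 were lower by more than 2-fold in csMed1-/- heart, and Ttn, Actn2 and Nkx2-5 lay within 2-fold, with ratios of 0.699, 1.47 and 1.29. Actc1, Mb and the row shared by Myh6 and Myh7 were listed at 0 in control, although every cardiomyocyte uses them, and at 9189, 1040 and 647 FPKM in csMed1-/- heart. These zeros can be failed estimates, and no ratio was taken for these genes. Heart RNA is a mixture of cell types, and fewer cells of a type cannot be told apart from less RNA per cell.

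Both light chains of the ventricle had lower values in csMed1-/- heart, and the minor forms of the essential light chain and of myosin-binding protein C had higher ones. Of the 9 members that passed the filter on low values, 3 were lower by more than 2-fold (Myl2, Mylk3 and Mylk4), 3 were higher by more than 2-fold (Myl1, Myl4 and Mybpc2) and 3 lay within 2-fold (Myl3, Myl7 and Mybpc3). Over all 10489 genes, 18.0% were lower and 13.6% were higher by more than 2-fold, 31.5% in all. The median log2 ratio was -0.53 over the 9 members and -0.07 over all genes, whose quartiles were -0.72 and 0.55. Mylk2, under 1 FPKM in both libraries, did not pass the filter.

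**Figure D1:**
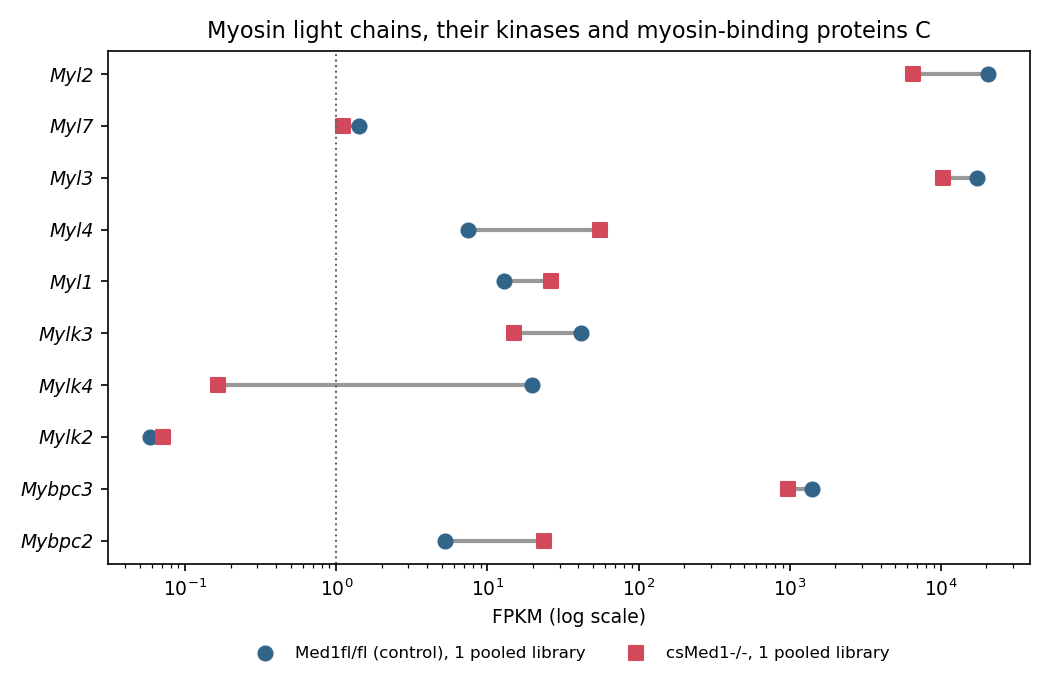
FPKM of the 10 genes on a log axis, with a circle for the pooled control library and a square for the pooled csMed1-/- library; the dotted line marks 1 FPKM, and there are no error bars because each genotype has 1 library. Mylk4 spans the widest interval, from 19.9 FPKM in control to 0.165 FPKM in csMed1-/- heart, and Myl2 and Myl3 stand far above the other members in both libraries.

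The sequences upstream of 5 members, the 3 members higher by more than 2-fold and both kinase genes lower by more than 2-fold, were taken from RefSeq (GRCm38.p6, the assembly also called mm10). Windows of 250 bases before a RefSeq transcript start were held for 9 of the 10 members, all but Mylk2. Capitals mark matches, on either strand, to any of 7 motifs, and matches may overlap each other. The M-CAT element of muscle genes was searched as CATTCC. The E-box, bound by basic helix-loop-helix factors, was searched as CANNTG and the core promoter element as TATAAA. The half-site of nuclear receptors was searched as AGGTCA and the motif of the cardiac factor NKX2-5 as TNAAGTG, and the MEF2 and CArG motifs completed the set.

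These are the members beyond 2-fold other than Myl2, shown so that the genes that were lower can be compared with those that were higher. The lower ones are Mylk4 (chr13:32783965-32784214, minus strand) and Mylk3 (chr8:85381042-85381291, minus strand), and the higher ones are Myl4 (chr11:104550413-104550662, plus strand), Mybpc2 (chr7:44524670-44524919, minus strand) and Myl1 (chr1:66945057-66945306, minus strand), each 5′ to 3′ along the gene.
Mylk4: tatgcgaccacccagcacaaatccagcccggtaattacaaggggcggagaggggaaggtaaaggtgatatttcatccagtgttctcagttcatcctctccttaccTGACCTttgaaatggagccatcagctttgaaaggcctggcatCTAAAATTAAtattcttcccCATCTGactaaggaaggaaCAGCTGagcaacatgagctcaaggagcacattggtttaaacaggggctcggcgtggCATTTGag
Mylk3: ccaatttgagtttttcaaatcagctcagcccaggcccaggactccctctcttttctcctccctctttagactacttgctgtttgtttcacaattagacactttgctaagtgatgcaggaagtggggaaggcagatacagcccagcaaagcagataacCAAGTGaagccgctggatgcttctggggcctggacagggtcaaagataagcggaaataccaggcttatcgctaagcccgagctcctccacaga
Myl4: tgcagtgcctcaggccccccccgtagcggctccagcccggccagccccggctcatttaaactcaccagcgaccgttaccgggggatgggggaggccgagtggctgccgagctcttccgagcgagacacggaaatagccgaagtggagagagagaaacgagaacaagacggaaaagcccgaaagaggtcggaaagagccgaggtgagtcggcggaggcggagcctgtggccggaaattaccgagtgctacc
Mybpc2: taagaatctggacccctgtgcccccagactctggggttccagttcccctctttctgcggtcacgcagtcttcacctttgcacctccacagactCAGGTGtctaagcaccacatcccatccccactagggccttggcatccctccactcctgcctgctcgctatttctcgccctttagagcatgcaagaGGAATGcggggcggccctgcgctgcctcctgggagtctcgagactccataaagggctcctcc
Myl1: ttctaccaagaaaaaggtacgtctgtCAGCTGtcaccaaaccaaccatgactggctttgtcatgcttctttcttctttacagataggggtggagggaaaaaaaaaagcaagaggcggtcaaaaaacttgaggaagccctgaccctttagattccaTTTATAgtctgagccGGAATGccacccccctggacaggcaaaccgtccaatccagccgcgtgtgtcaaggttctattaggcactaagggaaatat

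Mylk4 had a MEF2 match at -103 to -94 from its start, an AGGTCA match on the opposite strand at -145 to -140, and 3 E-boxes. Among all 32851 RefSeq windows of this length, 2.92% held a MEF2 match, 14.0% an AGGTCA match and 66.2% an E-box. Mylk3 had windows from more than one start, and the one printed, of the most upstream of those held, contained 1 E-box. The window of Myl4 held none of the motifs. Mybpc2 and Myl1, both fast skeletal muscle genes, each held a CATTCC match on the opposite strand, at -62 to -57 and at -80 to -75, and an E-box. Myl1 also held a TATAAA match, at -95 to -90 and on the opposite strand. CATTCC was not particular to the higher genes, since the other window of Mylk3, at -148 to -143, and the windows of Myl3 and Myl7 held it too. CATTCC was found in 12.6% and TATAAA in 12.4% of all windows. A CArG match, found in 1.47% of all windows, stood at -85 to -76 in Myl3 and at -61 to -52 in Myl7, which are not printed, and a MEF2 match at -90 to -81 in Mybpc3. TNAAGTG, found in 10.1% of all windows, was in no member's window. RefSeq and GENCODE starts differ for several members. The windows of Myl3, Mylk3 and Myl1 lie wholly or partly inside the gene as GENCODE M21 annotates it, downstream of its outermost start. The windows held for Myl2 lie upstream of the start of the gene in the GENCODE M21 annotation and are not printed. 1 of them held an AGGTCA match at -141 to -136 and a TATAAA match on the opposite strand at -216 to -211, so neither motif was particular to Mylk4 or Myl1.

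Myl2 (chromosome 5, 122100951 to 122113472, plus strand, GENCODE M21 annotation of GRCm38), the ventricular regulatory light chain, stood at 20467 FPKM in the control pool against 6571 FPKM in the csMed1-/- pool. It was the gene with the highest value of the control library and the sixth highest of the csMed1-/- library. These ranks are over unlike lists, since Actc1, above Myl2 in csMed1-/- heart, was among the genes listed at 0 in control. The ratio was 0.321, a log2 ratio of -1.64. Myl7 (chromosome 11, 5896637 to 5898782, minus strand), the atrial regulatory light chain, stood at 1.42 FPKM in the control pool against 1.10 FPKM in the csMed1-/- pool (ratio 0.776), on about 54 and 55 reads. Myl7 was within 2-fold, and at such read numbers a difference of this size was not detectable. Myl7 made up 0.00695% of the summed FPKM of Myl2 and Myl7 in control and 0.0168% in csMed1-/- heart. Between the libraries Myl2 differed by a larger factor than Myl7, which was near the filter limit of 1 FPKM in both.

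Myl3 (chromosome 9, 110741861 to 110769798, plus strand), the ventricular essential light chain, stood at 17340 FPKM in the control pool against 10278 FPKM in the csMed1-/- pool. Only Myl2 had a higher value in control, with the same limit, and Myl3 had the fourth highest value in csMed1-/- heart. Its ratio of 0.593 stayed within 2-fold, and its log2 ratio was -0.75. Since Myl2 was lower by a larger factor than Myl3, the ratio of Myl3 to Myl2 FPKM went from 0.847 in control to 1.56 in csMed1-/- heart, a 1.85-fold difference that does not depend on the scaling of the libraries. Together Myl2 and Myl3 held 4.84% of all FPKM in control and 2.35% in csMed1-/- heart.

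Myl4 (chromosome 11, 104550663 to 104595753, plus strand), the atrial and embryonic essential light chain, stood at 7.44 FPKM in the control pool against 55.2 FPKM in the csMed1-/- pool. It was 7.41-fold higher (log2 ratio 2.89), rank 184 from the top of 10489 ratios. Its share of the summed FPKM of Myl1, Myl3 and Myl4 came to 0.0429% in the control pool and 0.532% in the csMed1-/- pool, and Myl3 still held 99.2% there. Myl1 (chromosome 1, 66924295 to 66945404, minus strand), the fast skeletal form, stood at 13.0 FPKM in the control pool against 26.4 FPKM in the csMed1-/- pool. The ratio of 2.04 lay just past the threshold, and with 1 FPKM added to both values the log2 ratio of 1.03 became 0.98, inside 2-fold. Of the distinct sequences of read length, 50 bases, in Myl1 transcripts, 11.7% also occur in transcripts of the pseudogene Mylf-ps, against 0.0428% for Myl4, 0.405% for Mylk4 and 0 for the other 7 members. Reads of such sequences cannot be assigned to 1 gene with certainty. Myl2, Myl3, Myl4, Mylk3, Mylk4 and Mybpc2 overlap other annotated genes on the opposite strand. The libraries kept strand, but whether the counting used it is not given in the sources used here.

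The markers of chamber and muscle type beside these light chains did not differ in one direction. Of the 7 atrial markers besides Myl4 and Myl7, 4 passed the filter. Nppa, the gene of atrial natriuretic peptide (468 and 11114 FPKM), was higher by more than 2-fold, and Stard10 (33.8 and 4.42 FPKM) and Kcnj3 (2.26 and 0.110 FPKM), an atrial potassium channel gene, were lower. Kcna5 lay within 2-fold. Sln, the gene of the atrial SERCA inhibitor sarcolipin, had 0.356 and 0.174 FPKM, Mybphl 0.239 and 0 FPKM, and Bmp10 was at 0 in both libraries. These 7 markers summed to 523 FPKM in the control pool and 11129 FPKM in the csMed1-/- pool, nearly all of it Nppa. The paper uses Nppa as an indicator of heart failure, in which it states that ventricular cells come to secrete the peptide. The sum is therefore no measure of atrial cells. Of the ventricular markers besides Myl2 and Myl3, Irx4, a ventricular transcription factor gene, had 28.4 and 12.0 FPKM, Hey2 1.06 and 0.409 FPKM, and Pln, the gene of phospholamban, 771 and 56.2 FPKM, all lower by more than 2-fold. Pln is among the genes that the paper itself reports as down-regulated in csMed1-/- heart, so it is no neutral measure of ventricular cells. The atrial markers other than Myl4, Nppa, Stard10 and Kcna5, Myl7 among them, were below 3 FPKM in both libraries. The part of atrial and ventricular cells in the values of Myl4 and Myl2 was not tested.

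**Figure D2:**
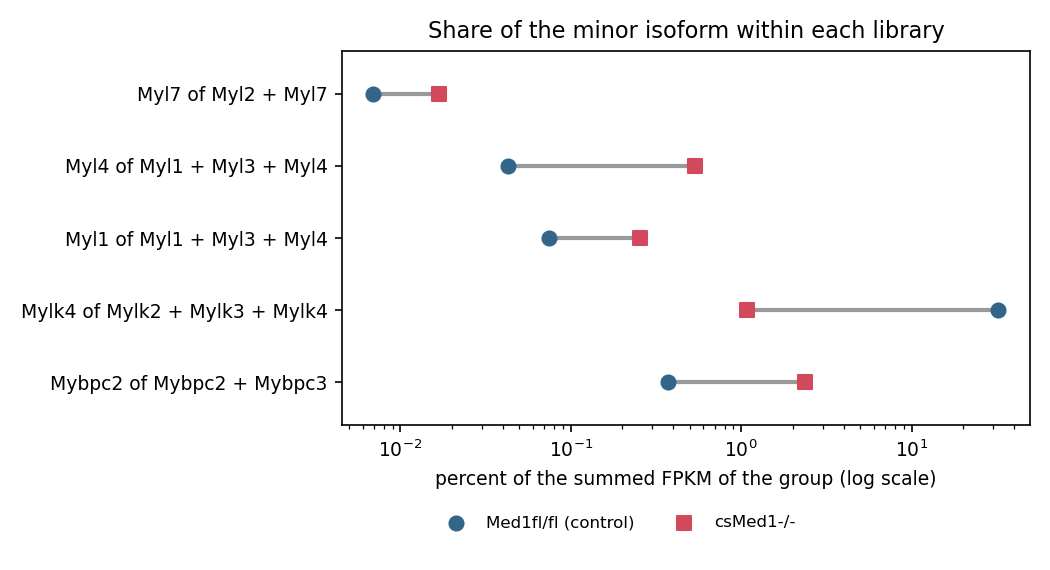
Share of less abundant genes of each pair or group within 1 library, as a percent of the summed FPKM of the group on a log axis. Circles stand for control and squares for csMed1-/- heart (1 pooled library each, no error bars). Mylk2, the least abundant of the kinase genes, is not plotted. The shares of Myl7, Myl4, Myl1 and Mybpc2 were higher and the share of Mylk4 was lower in csMed1-/- heart, and such shares do not change with the scaling of a library.

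Mylk4 (chromosome 13, 32700834 to 32783954, minus strand) showed the widest difference of all members. It stood at 19.9 FPKM in the control pool, about 7100 reads, against 0.165 FPKM in the csMed1-/- pool, about 78 reads. The ratio of 0.00832 corresponds to a value 120.2-fold lower (log2 ratio -6.91), the eighth lowest of the 10489 ratios. Adding 1 FPKM to both values, the alternative that moved it most, gave a log2 ratio of -4.16. Mylk3 (chromosome 8, 85324303 to 85386345, minus strand), the cardiac kinase gene, stood at 41.5 FPKM in the control pool against 15.0 FPKM in the csMed1-/- pool, a ratio of 0.360 (log2 ratio -1.47). Mylk2 (chromosome 2, 152911352 to 152923068, plus strand), the skeletal muscle kinase gene, had 0.0584 and 0.0712 FPKM, about 11 and 18 reads, and at this depth no difference could be detected.

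The summed FPKM of the 3 kinase genes came to 61.4 in the control pool against 15.2 in the csMed1-/- pool, 4.04-fold lower. Mylk3 held 67.6% of that sum in control and 98.4% in csMed1-/- heart, and Mylk4 held 32.3% and 1.09%. Set against the substrate of the kinases, Mylk3 had 2.03 FPKM for every 1000 FPKM of Myl2 in control and 2.28 in csMed1-/- heart, and the single values were 2.78-fold lower for Mylk3 and 3.11-fold lower for Myl2. For Mylk4 the same quantity was 0.970 in control and 0.0251 in csMed1-/- heart, 38.6-fold lower.

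Mybpc3 (chromosome 2, 91118144 to 91136516, plus strand), the gene of cardiac myosin-binding protein C, stood at 1410 FPKM in the control pool against 975 FPKM in the csMed1-/- pool. Its ratio of 0.691 (log2 ratio -0.53) was within 2-fold and close to that of Myl3. For each FPKM of Myl3, Mybpc3 had 0.0813 FPKM in the control pool and 0.0949 in the csMed1-/- pool, and for each FPKM of Myl2 it had 0.0689 and 0.148 FPKM. Mybpc2 (chromosome 7, 44501699 to 44524656, minus strand), the fast skeletal form, stood at 5.25 FPKM in the control pool, about 1200 reads, against 23.6 FPKM in the csMed1-/- pool, about 7200 reads. It was 4.49-fold higher (log2 ratio 2.17) and its share of the summed FPKM of both genes went from 0.371% to 2.36%.

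Other genes of fast skeletal muscle were set beside Myl1 and Mybpc2. Of 12 such markers that are not members, 4 passed the filter, and their median log2 ratio was -0.88. Mylpf, the fast regulatory light chain gene (0.955 and 2.44 FPKM), and Casq1, the gene of skeletal calsequestrin (38.0 and 188 FPKM), were higher by more than 2-fold. Tnni2, the fast troponin I gene (5.38 and 0.276 FPKM), and Myh1, a fast heavy chain gene (4.05 and 0.471 FPKM), were lower by more than 2-fold. Actn3, Tnnt3, Tnnc2, Myh4, Atp2a1, Pvalb and Mybpc1 were below 1 FPKM in both libraries, and Myh2 shared its row with Myh8. The other 11 markers summed to 50.1 and 193 FPKM, of which Casq1 held most in both libraries. The part of skeletal muscle cells in the values of Myl1 and Mybpc2 was not tested.

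**Figure D3:**
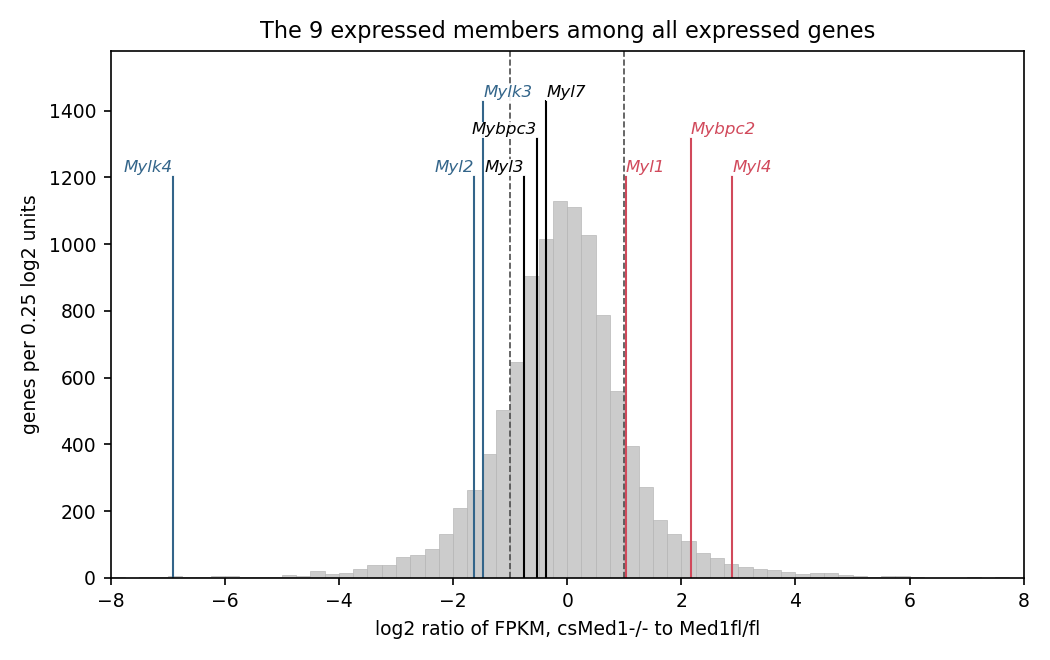
Histogram of the log2 ratio of csMed1-/- to control FPKM for the 10489 genes kept (grey bars, genes per 0.25 log2 units), with a vertical line for each of the 9 members kept and dashed lines at 2-fold; the height of a member's line has no meaning. Mylk4 at -6.91 lies in the far lower tail, Myl4 at 2.89 in the upper tail, and Myl3, Mybpc3 and Myl7 lie inside 2-fold, below 0.

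Some cardiomyocyte markers were lower beside Myl2 and Mylk3, and their part in these values was not tested. The 7 markers had log2 ratios from -3.28 (Ryr2) to 0.56 (Actn2), with a median of -1.03. The markers include Ryr2, which the paper itself reports as down-regulated in csMed1-/- heart. The median is the value of a single gene, Tnnt2, and is no neutral measure of cardiomyocyte content. Relative to that median, the log2 ratios of Myl2 (-0.61) and Mylk3 (-0.45) came inside 2-fold, those of Myl3 (0.27), Mybpc3 (0.50) and Myl7 (0.66) turned positive, and Mylk4 (-5.88), Myl4 (3.92), Myl1 (2.06) and Mybpc2 (3.20) stayed past 2-fold in the same direction. On that scale 525 genes were lower and 5042 higher by more than 2-fold, so that 9.43% of the calls were lower, against 57.0% with the values as deposited.

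The other genes of the thick filament and of light chain phosphorylation were taken as a list of 41 genes, of which 37 had a row of their own and 30 passed the filter. In csMed1-/- heart 6 were lower by more than 2-fold, 7 were higher and 17 lay within 2-fold. Of these 30, 20.0% were lower and 23.3% higher, against 18.0% and 13.6% of all genes, and their median log2 ratio was 0.36. Relative to the median of the cardiomyocyte markers 3 were lower and 19 higher by more than 2-fold, so the balance of directions in this list depends on the scaling.

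Of the 6 other light chain genes kept, Myl9, Myl6 and Mylpf were higher by more than 2-fold, 1 was lower and 2 lay within 2-fold. Myl9, the smooth muscle regulatory light chain gene, had 102 and 624 FPKM in control and csMed1-/- heart (ratio 6.11). The paper lists Myl9 as up-regulated, with the same ratio by RNA-seq and a smaller one by qPCR. Myl6, the essential light chain gene of smooth muscle and non-muscle myosin, had 313 and 876 FPKM (ratio 2.80). Myl12a and Myl12b, non-muscle regulatory light chain genes, were within 2-fold with ratios of 1.66 and 1.44. Myl6b, with 5.18 and 2.44 FPKM (ratio 0.470), was lower. Smooth muscle markers differed in both directions beside Myl9. Cnn1 (4.32 and 622 FPKM), the calponin gene, and Tagln (23.8 and 89.7 FPKM) were higher, whereas Smtn (119 and 41.1 FPKM), Myh11, the smooth muscle heavy chain gene (3.68 and 1.79 FPKM), and Mylk, the smooth muscle kinase gene (3.91 and 1.80 FPKM), were lower by more than 2-fold and Acta2 (573 and 310 FPKM) lay within it. The 6 smooth muscle markers other than Myl9 summed to 727 FPKM in the control pool and 1067 FPKM in the csMed1-/- pool, where Cnn1 held the most, and their part in the value of Myl9 was not tested. Of 6 fibroblast markers, the collagen genes Col1a1 (129 and 502 FPKM) and Col1a2 (95.7 and 314 FPKM) were higher by more than 2-fold, Lum (8.04 and 3.72 FPKM) was lower, and Col3a1, Dcn and Pdgfra lay within 2-fold. Of 5 endothelial markers, the receptor genes Kdr (36.5 and 11.8 FPKM) and Tek (8.50 and 2.28 FPKM) were lower and Pecam1, Cdh5 and Egfl7 lay within 2-fold. All 4 leukocyte markers that passed the filter lay within 2-fold.

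Of the heavy chain genes, Myh7b, related to the slow and cardiac heavy chains, had 1.78 and 0.180 FPKM (log2 ratio -3.30), the lowest ratio of the list, and Myh1 and Myh11 were lower as well. Myh10, a non-muscle heavy chain gene, had 2.95 and 6.69 FPKM (ratio 2.27), and Myh9 and Myh14 lay within 2-fold. The row shared by Myh2 and Myh8 had 2.93 and 0.264 FPKM.

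The myosin phosphatase removes the phosphate that the kinases add. Its targeting subunit genes Ppp1r12a (0.653 and 1.76 FPKM) and Ppp1r12c (34.4 and 74.9 FPKM) were higher by more than 2-fold. Ppp1r12b, the form of striated muscle, had 48.0 and 62.5 FPKM, and the catalytic subunit gene Ppp1cb 3.51 and 4.50 FPKM, both within 2-fold. Ppp1r14c, the gene of a phosphatase inhibitor, had 73.0 and 16.8 FPKM (ratio 0.230) and was lower. Dapk3, the gene of a further kinase that acts on regulatory light chains, was higher with 31.7 and 92.6 FPKM (ratio 2.92). The myosin chaperone gene Unc45b (ratio 0.676), the methyltransferase gene Smyd1 (ratio 0.654), and Prkaca (0.825) and Camk2d (1.05), which encode kinases of cardiac myosin-binding protein C, were within 2-fold.

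**Figure D4:**
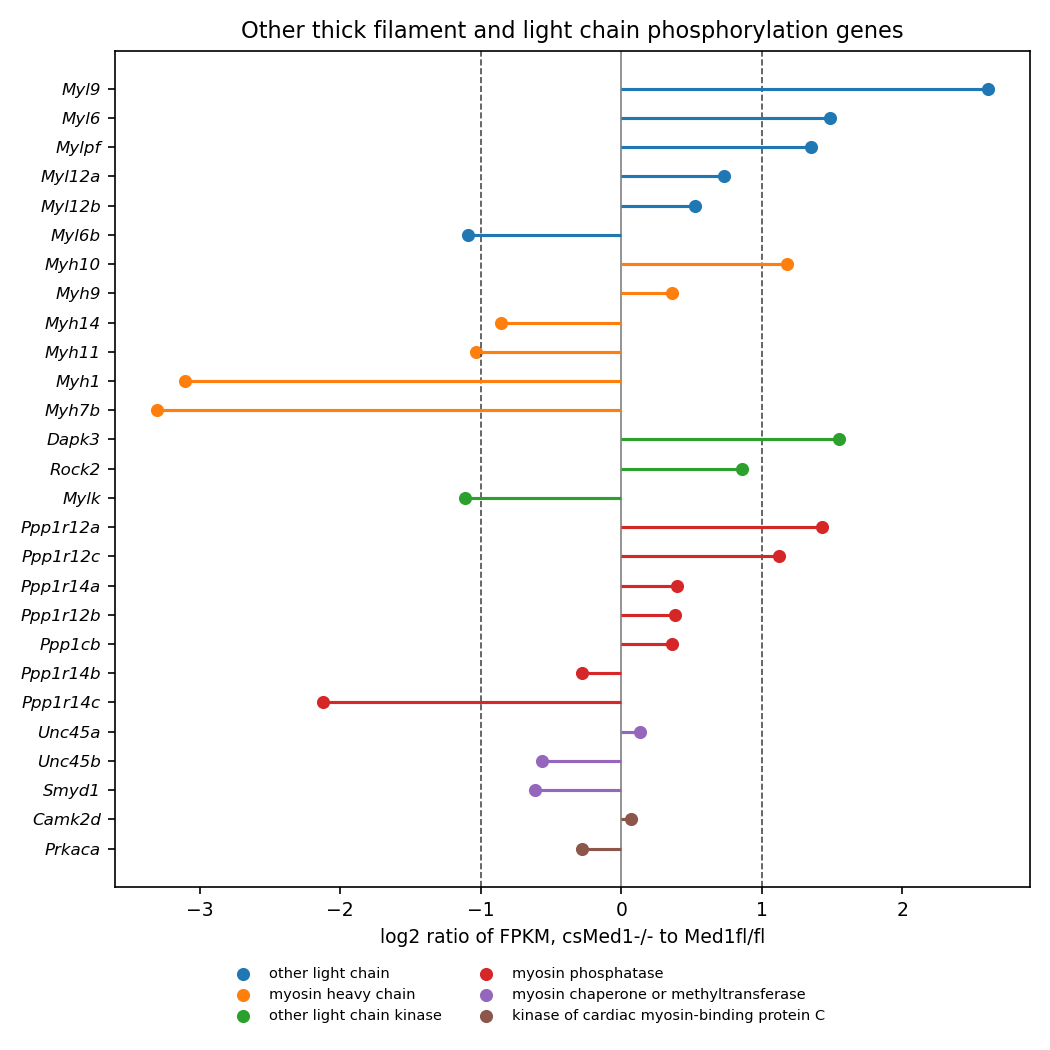
Log2 ratio of csMed1-/- to control FPKM for 27 of the 30 other thick filament and light chain phosphorylation genes that passed the filter, coloured by role, with dashed lines at 2-fold; each point is the ratio of 2 pooled libraries. Myl9 at 2.61 is the highest and Myh7b at -3.30 the lowest.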

How the data were processed

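Heart RNA was pooled from 5 mice per genotype, and polyadenylated RNA was sequenced as directional single-end 50-base reads. The authors aligned reads to the mm10 assembly with TopHat2 2.0.8b and deposited FPKM values per gene from Cuffdiff 2.1.1 with UCSC gene models (versions from the submitters' processing notes, which also name STAR 2.4.0h and Bowtie2 without a role). The library scaling used is not given in the sources used here. The 23424 rows gave 22882 symbols after rows with the same symbol were summed. Ratios of csMed1-/- to control FPKM were taken as deposited, with no pseudocount, for genes that neither library listed at 0 and that reached 1 FPKM in either, and compared with a 2-fold threshold. With 1 library per genotype no test was made. Depth was estimated from steps among low values of 14818 single-transcript genes, without intervals, since the files hold no counts. Coordinates and sequences of read length came from GENCODE M21 (GRCm38). Python 3.11.15, numpy 2.4.6, pandas 2.3.3 and matplotlib 3.10.9 were used, and the calculations were tested on simulated data.

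All 10 members were named, with Med1, the listed thick filament genes past 2-fold, and the markers. Listed genes within 2-fold, and the members whose upstream sequence is printed, were chosen after their values were seen. The members and lists were chosen with earlier results of these data known. Alternatives were 2 pseudocounts, 3 filters on low values, 5 library scalings, 2 thresholds, and the highest row in place of the sum. Of the listed genes, 3 within 2-fold stay in the counts but are not reported here by name or plotted.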

Additional observations from a re-analysis of the deposited data

How the results depend on the processing

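Across 13 alternatives, 235 values were recomputed. Of these 202 stayed on the same side of the threshold or within set limits. A further 26 moved, 6 no longer passed the threshold, 1 newly passed it and 0 reversed, that is, no value past the threshold changed sign. For counts and shares the limit was a factor of 1.5, so some of the 202 did change. Members higher past the threshold, for example, were 3 as deposited and 2 with 1 FPKM added or at 4-fold. Many of the 235 values could not change. The filters, the thresholds and the highest row left the log2 ratio of each member kept as it was, since each member had 1 row. Shares were recomputed only with 1 FPKM added and with the highest row. The count of 202 is therefore no measure of how firm the results are. Of the members, 1 was lower past the threshold in place of 3 when ratios were set relative to the cardiomyocyte markers, and 1 at a 4-fold threshold. Of the list of thick filament and light chain phosphorylation genes, 6 were lower as deposited, and 3 with 1 FPKM added, 1 at 10 FPKM in at least one library, 3 with libraries scaled to equal sums, 3 relative to the cardiomyocyte markers and 3 at a 4-fold threshold. The 7 genes higher became 4 with 1 FPKM added, 4 at 10 FPKM, 19 relative to the cardiomyocyte markers, 1 at 4-fold and 11 at 1.5-fold. With 1 FPKM added, the share of Myl7 was 0.0118% in control and 0.0320% in csMed1-/- heart. These follow from the construction of each alternative, a smaller set of genes, another threshold, 1 FPKM added, or a shift of all log2 ratios. The shift was 1.03 (cardiomyocyte markers) or 0.12 (equal sums), and 1 FPKM added moves low values most. Over all genes, 1886 lower and 1423 higher became 3182 and 2504 with no filter, 885 and 821 at 10 FPKM, 525 and 5042 relative to the cardiomyocyte markers, 539 and 453 at 4-fold, and 3120 and 2488 at 1.5-fold. No paired analysis was possible because each genotype had 1 library, and for the same reason no replicate could be left out.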
